A study of Mus musculus with 35 samples.

Results

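The 9 genes described here are Xbp1 and 8 genes of ER-associated degradation (ERAD): Herpud1, Sel1l, Syvn1, Derl1, Derl2, Derl3, Edem1 and Dnajb9. They were chosen by name from the 18194 genes that have a probe set of their own on the array, and all 9 were above the limit on low values, as were 14135 of all genes. Their mRNA was measured in primary mouse embryonic fibroblasts (MEFs) of strain C57BL6/J, treated with methyl methanesulfonate (MMS), a compound that methylates DNA and other molecules of the cell. No gene was altered in these cells, and nothing in the labels says how many embryos or females they came from. The labels give embryos of day 15.5 and 2 passages, and the study's methods give younger embryos and more passages. All cells received fresh medium on the day after plating. Control cells received medium alone and were harvested after 0, 1, 8, 24 and 72 h, and treated cells received 40 µg/mL MMS and were harvested after 1, 8, 24 and 72 h. Each of the 9 groups had 4 arrays apart from MMS at 72 h, for which 3 were analysed here. The labels call the replicates biological without saying that they were separate cultures, so the p-values below cover only the spread among the arrays of a group, which may be technical.

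ERAD is the route by which proteins that fail to fold in the endoplasmic reticulum (ER) are brought back to the cytosol, tagged with ubiquitin and handed to the proteasome. Its best known machine is a membrane complex built around the ubiquitin ligase HRD1, the product of Syvn1, with its partner SEL1L, the derlins and HERPUD1. Genes of this route belong to the unfolded protein response (UPR), in which the ER sensors IRE1, ATF6 and PERK change transcription and translation. IRE1 splices the Xbp1 mRNA, and the protein made from the spliced form, XBP1s, is a transcription factor of ERAD genes and ER chaperones. The probe sets used here read the sum of spliced and unspliced Xbp1 mRNA, so Xbp1 levels below say nothing of splicing.

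Promoter sequences were taken from RefSeq (mouse build GRCm38.p6), which gave a window of 250 bases before to 50 bases after the start site for 8 of the 9 genes (all but Derl1). Each window was searched on both strands for the ER stress response element ERSE (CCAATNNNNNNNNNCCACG, where N is any base), for ERSE-II (ATTGGNCCACG), for the core of the UPR element (TGACGTG) and for CCACG alone, which is also part of the ERSE and ERSE-II. An ERSE was found in 2 genes, Syvn1 and Derl3, against 0.119% of all 32851 windows and 0.137% of the 27025 genes they belong to. An ERSE-II was found in Herpud1 alone, against 0.0365% of windows. The UPR element core was in none of the 8 genes and in 2.01% of windows. CCACG was in 7 of the 8 genes, Xbp1 being the exception, in Derl2 through 1 of its 2 windows, and in 35.5% of all genes (32.8% of windows). A match is a description of letters, and none of these arrays measured binding. The 250 bases before the start site are shown for the 3 genes with an ERSE or ERSE-II and for Dnajb9, the gene with the largest rise after MMS, which has 2 copies of CCACG and neither longer element. Capitals mark the ERSE or ERSE-II and any other CCACG, which reads CGTGG where the match is on the opposite strand. The windows are chr8:94386179-94386428 for Herpud1, chr19:6046326-6046575 for Syvn1 and chr10:75893148-75893397 for Derl3, all 3 on the plus strand, and chr12:44210069-44210318 on the minus strand for Dnajb9.
Herpud1: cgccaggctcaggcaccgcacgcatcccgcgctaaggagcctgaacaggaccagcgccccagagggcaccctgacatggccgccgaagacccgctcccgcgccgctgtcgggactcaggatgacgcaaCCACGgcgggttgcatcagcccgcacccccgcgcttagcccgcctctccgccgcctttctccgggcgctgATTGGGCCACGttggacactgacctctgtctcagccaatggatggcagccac
Syvn1: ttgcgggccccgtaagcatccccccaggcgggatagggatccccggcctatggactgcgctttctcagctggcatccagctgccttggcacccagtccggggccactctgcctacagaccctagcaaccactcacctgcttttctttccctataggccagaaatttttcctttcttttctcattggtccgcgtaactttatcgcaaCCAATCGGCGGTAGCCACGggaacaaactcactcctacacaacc
Derl3: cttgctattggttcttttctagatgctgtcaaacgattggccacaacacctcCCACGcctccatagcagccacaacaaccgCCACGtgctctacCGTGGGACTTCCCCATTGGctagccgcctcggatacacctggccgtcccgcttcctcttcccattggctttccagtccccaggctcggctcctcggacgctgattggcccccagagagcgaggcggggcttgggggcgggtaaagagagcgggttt
Dnajb9: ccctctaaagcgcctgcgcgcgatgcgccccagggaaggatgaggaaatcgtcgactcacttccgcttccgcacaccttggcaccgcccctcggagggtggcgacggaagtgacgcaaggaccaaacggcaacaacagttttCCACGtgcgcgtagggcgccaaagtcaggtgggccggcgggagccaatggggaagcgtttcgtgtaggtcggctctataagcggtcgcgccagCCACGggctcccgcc

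Values are the deposited log2 signals, so a difference of 1 is a 2-fold change, and levels of different genes on an array cannot be compared. The effect of MMS is the level in treated minus control cells harvested at one time, estimated by limma over all 35 arrays at once. A call means an adjusted p under 0.05 (Benjamini-Hochberg over the 14135 genes tested in each comparison). All 14 fibroblast markers were above the limit on low values on all 35 arrays, though most were lower after MMS at 8 and 24 h (values below). 6 arrays also carried transcripts of intestinal epithelium. The mean of 26 intestinal markers was 10.49 on control 0 h replicate 3, 8.60 on MMS 24 h replicate 3, 7.003 on MMS 1 h replicate 3, 5.90 on MMS 72 h replicate 3, 5.68 on control 1 h replicate 3 and 5.39 on control 24 h replicate 4, and at most 5.24 on the other arrays. Replicate 3 accounts for 5 of these 6 arrays. The 8 arrays at 8 h, of both treatments, stood apart from the rest in macrophage markers. The mean of 16 such markers was 8.04 to 8.18 in control and 7.53 to 7.78 in MMS-treated cells at 8 h, and 4.44 to 5.99 in all other arrays. At 24 h, too, this mean differed with treatment, with 4.84 to 5.37 in MMS-treated and 4.44 to 4.53 in control arrays. There only 3 of the 15 markers tested were called higher, and the median log2 difference of the 15 was -0.07. For some results on the 9 genes that rest on arrays with intestinal transcripts, the values without those arrays are therefore given too. The gene lists below, and the genes named from them, are given with all arrays only. The 8 h effects can only be read within the 8 h arrays, where both treatments share this feature to a different degree, and its part in them was not tested. In cells in bulk, fewer cells of a type and less RNA per cell cannot be told apart.

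MMS raised most of these genes at 8 h and lowered most at 24 h. At 8 h 7 of the 9 were higher and 0 lower (0 also at an unadjusted p under 0.05), while the shares of all genes were 28.7% higher and 25.0% lower. At 24 h 2 were higher and 5 lower, against 25.0% and 19.4% of all genes. On the log2 scale the median difference of the 9 genes was 0.55 at 8 h, beside 0.06 over all genes, and -0.43 at 24 h, beside 0.01. At 1 h no gene of the 9 was called by limma, with 1 higher (Dnajb9) and 1 lower (Sel1l) at an unadjusted p under 0.05, and 0.361% of all genes were higher and 0.0283% lower. At 72 h 0 were higher, also at an unadjusted p under 0.05, and 2 lower, against 10.1% and 10.4% of all genes. Leaving out any single array of the groups compared left the counts at 1, 8 and 24 h as they were.

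**Figure D1:**
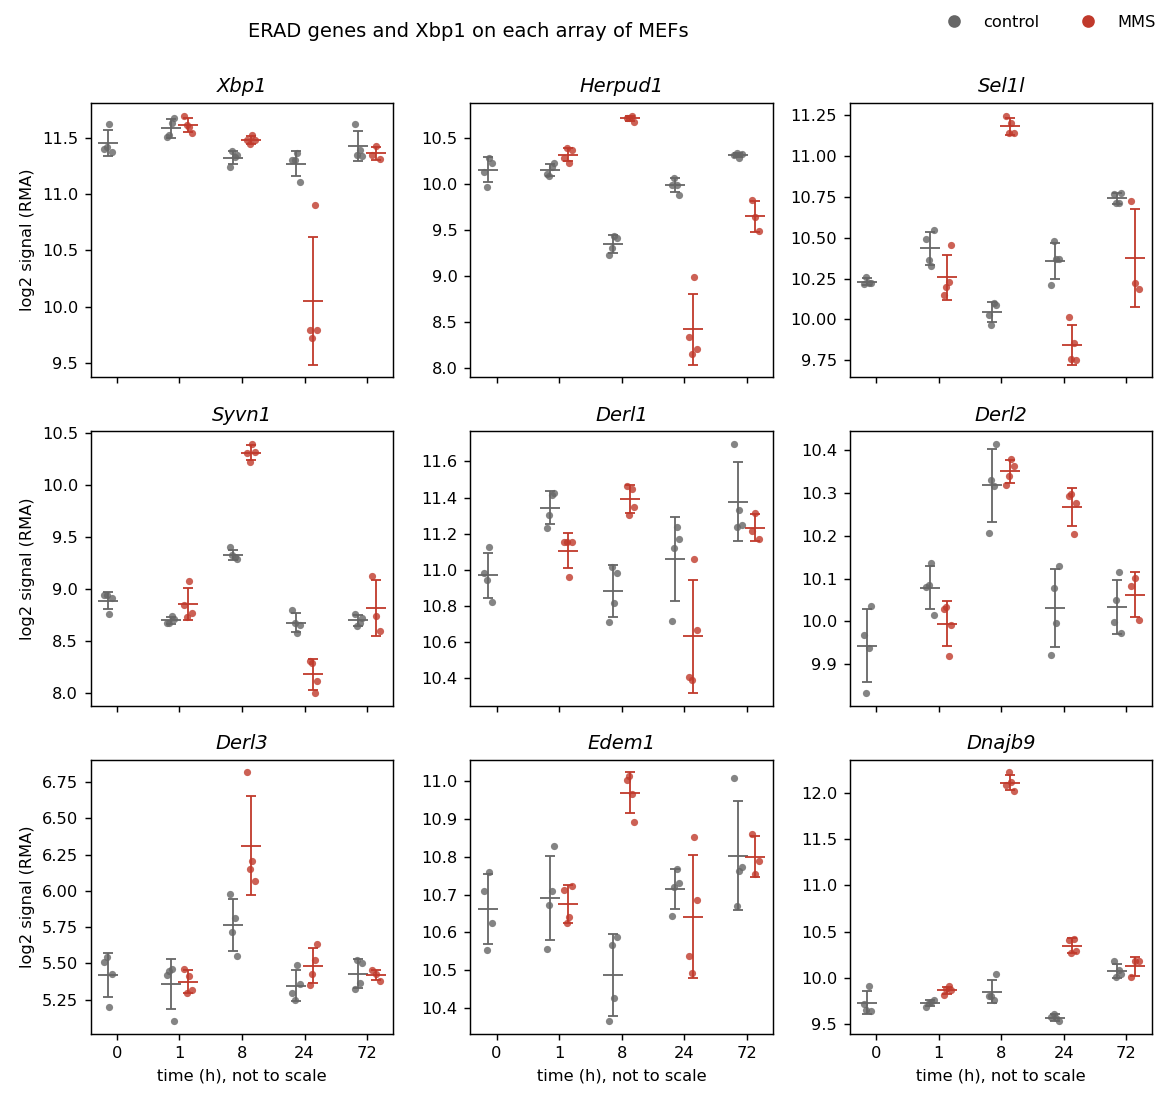
Log2 signal (y axis) of the 9 genes on each array against time (x axis, in hours, not to scale), with control cells in grey and MMS-treated cells in red; points are arrays, long ticks are group means and bars are 1 SD. The MMS arrays of Dnajb9, Sel1l, Syvn1 and Herpud1 lie above all control arrays at 8 h, and those of Xbp1 and Herpud1 lie below all control arrays at 24 h, with replicate 3 of MMS at 24 h the highest treated array of both.

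Xbp1 (chromosome 11, 5520641 to 5525993), the transcription factor gene, did not pass the test at 1 and 8 h and was lower at 24 h. At 8 h the control arrays read 11.24, 11.38, 11.33 and 11.35 and the MMS arrays 11.48, 11.44, 11.53 and 11.48. All treated arrays were thus above all control arrays, by a small margin. The difference was 0.16 (95% interval -0.14 to 0.45, adjusted p = 0.38), and it was not called. The spread in that test is shared by all groups. Without the 4 replicate 3 arrays that had the most intestinal transcripts the same difference of 0.16 had an adjusted p of 0.037, and without all 6 such arrays it had an adjusted p of 0.030. The other 3 Xbp1 probe sets differed by 0.20 to 0.49 at 8 h, each with all treated arrays above all controls.

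In control cells at 24 h the Xbp1 arrays read 11.30, 11.31, 11.37 and 11.11, a mean of 11.27 ± 0.11 (SD, n = 4). The MMS arrays read 9.79, 9.72, 10.90 and 9.79, a mean of 10.05 ± 0.57 (SD, n = 4). All treated arrays lay below all controls, and replicate 3, an array with intestinal transcripts, stood 1.13 above the mean of the other treated arrays. Xbp1 was 2.33-fold lower (log2 difference -1.22 ± 0.14 SE, adjusted p = 2.9e-08). Without replicate 3 the difference was -1.50 (adjusted p = 1.1e-16), and without all 6 arrays with intestinal transcripts it was -1.56. All 4 probe sets were lower at 24 h, by -0.52 to -1.22. At 72 h the MMS arrays read 11.35, 11.43 and 11.31 and the controls 11.34 to 11.62, overlapping, with a difference of -0.06 (95% interval -0.38 to 0.26, adjusted p = 0.87). The change of the MMS effect from 24 to 72 h was itself past the test (1.16 ± 0.21 SE, adjusted p = 8.1e-05).

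Herpud1, Sel1l and Syvn1, which code for the ligase HRD1 (Syvn1) and its partners, shared a rise at 8 h and a fall at 24 h. Herpud1 (chromosome 8, 94386429 to 94395371) codes for a membrane protein with a ubiquitin-like domain that joins the HRD1 complex, and its promoter is the one with the ERSE-II shown above. Its control arrays at 8 h read 9.23, 9.30, 9.43 and 9.42 and its MMS arrays 10.72, 10.72, 10.74 and 10.68. The groups were far apart, and the gene was 2.58-fold higher (1.37 ± 0.11 SE, adjusted p = 5.3e-12). The control cells at 8 h were themselves low. Against control cells at 0 h, which are not matched in time, the MMS arrays at 8 h were 0.56 higher (adjusted p = 3.7e-05). On the other Herpud1 probe set these groups were nearly level, with means of 9.74 in control cells at 0 h and 9.78 after MMS at 8 h.

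The Herpud1 control arrays at 24 h read 9.99, 10.07, 9.99 and 9.88 and the MMS arrays 8.33, 8.16, 8.99 and 8.21. Every treated array was below every control, and replicate 3 was again the highest treated array, 0.76 above the mean of the others. Herpud1 was 2.95-fold lower (-1.56 ± 0.11 SE, adjusted p = 5.0e-13), the largest fall of the 9 genes, and the difference was -1.75 without replicate 3. It was still lower at 72 h, with MMS arrays at 9.82, 9.64 and 9.49 and controls at 10.28 to 10.33 (-0.66 ± 0.12 SE, adjusted p = 7.4e-05). Its other probe set differed by 0.80 at 8 h, -1.46 at 24 h and -0.65 at 72 h.

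Sel1l (chromosome 12, 91806043 to 91849157) codes for the adaptor that holds HRD1 stable and links it to substrates in the ER lumen. At 8 h its control arrays read 10.03, 9.96, 10.10 and 10.09 and its MMS arrays 11.25, 11.14, 11.20 and 11.14. The treated arrays were all higher, 2.20-fold on average (1.14 ± 0.09 SE, adjusted p = 1.6e-12). Its control arrays at 24 h read 10.21 to 10.48 and the MMS arrays 10.01, 9.76, 9.86 and 9.75, again without overlap but in the opposite direction (-0.51 ± 0.09 SE, adjusted p = 1.0e-05). At 72 h it was lower by a smaller margin (-0.36 ± 0.09 SE, adjusted p = 0.0041). There the MMS arrays read 10.72, 10.22 and 10.18 and the controls 10.71 to 10.77, so that replicate 1 overlapped the controls. The 72 h call was lost without MMS 72 h replicate 2 (-0.29, adjusted p = 0.051) or replicate 3 (-0.27, adjusted p = 0.065), and with the average of its probe sets (-0.21, adjusted p = 0.056). The 5 probe sets of Sel1l were all higher after MMS than in control cells at 8 h, but by unequal amounts, 0.14 to 1.30. Against control cells at 0 h, the probe set used was higher after MMS at 8 h (means of 11.18 against 10.23). The others were lower (8.65 against 9.32, 8.47 against 9.34, 6.88 against 9.03 and 6.40 against 6.59).

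Syvn1 (chromosome 19, 6046576 to 6053718) codes for the ligase HRD1 itself, and its ERSE starts 44 bases before its start site. At 8 h its control arrays read 9.40, 9.33, 9.30 and 9.29 and its MMS arrays 10.31, 10.22, 10.39 and 10.32. It was 1.97-fold higher without overlap (0.98 ± 0.08 SE, adjusted p = 3.4e-11). Control cells had already moved from 8.89 ± 0.09 (SD, n = 4) at 0 h to 9.33 ± 0.05 (SD, n = 4) at 8 h. By 24 h its control arrays read 8.79, 8.67, 8.57 and 8.65 and the MMS arrays 8.31, 8.29, 8.00 and 8.11, and the gene was 1.41-fold lower (-0.50 ± 0.08 SE, adjusted p = 1.5e-05). At 72 h it did not pass (0.12, 95% interval -0.07 to 0.31, adjusted p = 0.44), and without the 4 arrays with the most intestinal transcripts it was higher (0.23, adjusted p = 0.043). Its other probe set differed by 0.94 at 8 h and -0.39 at 24 h.

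The 3 derlins, membrane proteins related to rhomboid proteases that take part in moving substrates out of the ER, gave different calls: Derl1 and Derl3 were called higher at 8 h and Derl2 was not. Differences between the derlins were not tested. Derl1 is on chromosome 15, 57869502 to 57892418. At 8 h its control arrays read 10.71, 11.01, 10.82 and 10.98 and its MMS arrays 11.46, 11.30, 11.45 and 11.35, a rise of 1.42-fold without overlap (0.51 ± 0.12 SE, adjusted p = 0.00064). At 24 h the MMS arrays read 10.41, 10.39, 11.06 and 10.67 and the controls 10.72 to 11.23. These overlapped through MMS 24 h replicate 3, and the fall was -0.43 ± 0.12 SE (adjusted p = 0.0040), or -0.57 without that array. With only the control and MMS arrays of 24 h in the fit the Derl1 fall was not called. The 4 probe sets of Derl1 agree in sign, with 0.45 to 1.13 at 8 h and -0.11 to -0.67 at 24 h.

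Derl2 (chromosome 11, 71007440 to 71019841) did not pass the test at 8 h, when its control arrays read 10.21 to 10.41 and its MMS arrays 10.32 to 10.38 (0.03, 95% interval -0.07 to 0.14, adjusted p = 0.64). At 24 h the MMS arrays read 10.29, 10.30, 10.20 and 10.28 and the controls 9.92, 10.08, 10.00 and 10.13. They did not overlap, and Derl2 was 1.18-fold higher (0.24 ± 0.05 SE, adjusted p = 0.00039). The other Derl2 probe set differed by -0.24 at 8 h and -0.07 at 24 h, and with the mean of both the 24 h difference was 0.08 and not called.

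Derl3 (chromosome 10, 75893398 to 75895941), the derlin with an ERSE, had signals not far above the limit on low values (4.40), with group means of 5.35 to 5.48 at 0, 1, 24 and 72 h. At 8 h its control arrays read 5.98, 5.72, 5.81 and 5.55 and its MMS arrays 6.82, 6.15, 6.20 and 6.07. The treated arrays were all higher, 1.46-fold on average (0.55 ± 0.12 SE, adjusted p = 0.00019), with replicate 1 well above the other treated arrays. Without MMS 8 h replicate 1 the difference was 0.38 (adjusted p = 0.0015). At 24 h the arrays overlapped, and the difference was 0.14 (95% interval -0.10 to 0.38, adjusted p = 0.37). It has 1 probe set.

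Edem1 and Dnajb9 act in the ER lumen. Edem1 (chromosome 6, 108824045 to 108859356) codes for a mannosidase-like protein that directs misfolded glycoproteins to ERAD. At 8 h its control arrays read 10.36, 10.57, 10.43 and 10.59 and its MMS arrays 10.89 to 11.01. It was 1.40-fold higher without overlap (0.48 ± 0.07 SE, adjusted p = 2.0e-06), and its other probe set was 0.88 higher. At 24 h the arrays overlapped (10.49 to 10.85 after MMS, 10.64 to 10.77 in controls), with a difference of -0.07 (adjusted p = 0.47). Replicate 3, an array with intestinal transcripts, was the highest treated array (10.85, others 10.49 to 10.69). The other Edem1 probe set was 0.39 higher at 24 h, and with the mean of both the gene was 0.16 higher (adjusted p = 0.023), so its direction at 24 h is not settled by these probe sets.

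Dnajb9 (chromosome 12, 44205897 to 44210068) codes for ERdj4, a co-chaperone of BiP in the ER lumen that binds misfolded proteins and also holds IRE1 inactive. At 8 h its control arrays read 9.80, 9.81, 9.76 and 10.04 and its MMS arrays 12.08, 12.22, 12.12 and 12.02. The treated arrays were about 2 log2 units above the controls, and Dnajb9 was 4.79-fold higher (2.26 ± 0.06 SE, adjusted p = 3.0e-22), the largest rise of the 9 genes. At 24 h the MMS arrays read 10.41, 10.27, 10.42 and 10.29 and the controls 9.58, 9.61, 9.56 and 9.53. It thus remained 1.71-fold higher (0.78 ± 0.06 SE, adjusted p = 1.6e-11) at the time when Herpud1, Xbp1, Sel1l, Syvn1 and Derl1 were lower. At 72 h the MMS arrays read 10.01, 10.18 and 10.19 and the controls 10.01 to 10.18, and the difference was 0.05 (adjusted p = 0.73). At 1 h all MMS arrays (9.81 to 9.91) lay just above all controls (9.69 to 9.76), with a difference of 0.14 that was not called (adjusted p = 0.64). Dnajb9 has 1 probe set.

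**Figure D2:**
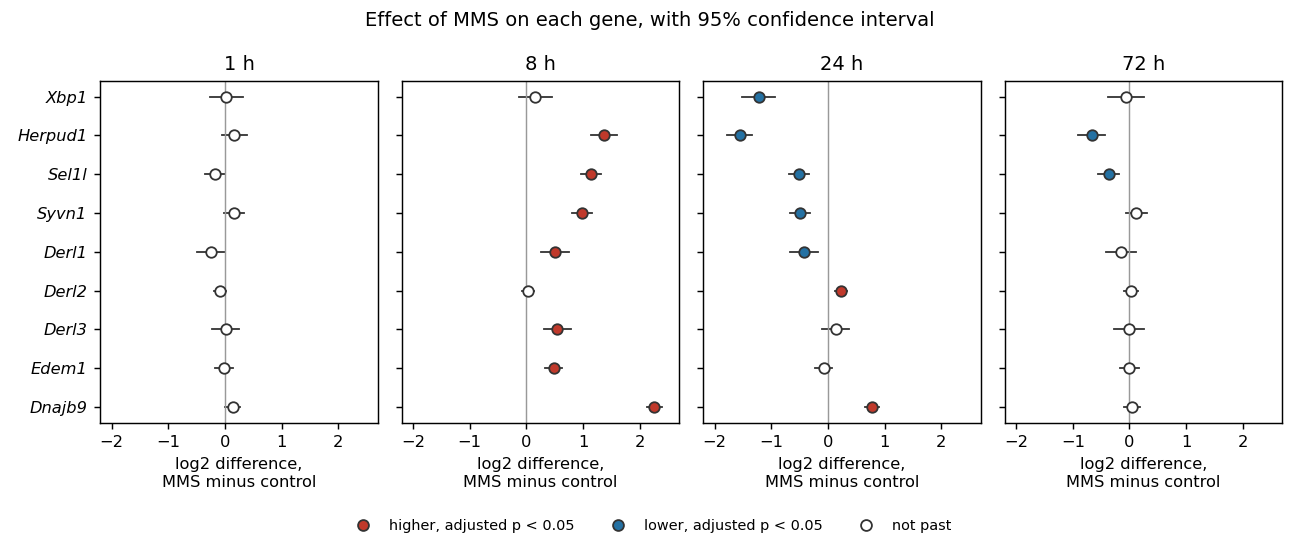
Log2 difference of MMS-treated minus control cells (x axis) for each gene (y axis) at 1, 8, 24 and 72 h, with 95% confidence intervals from limma; red points were called higher, blue points lower and white points were not called. At 8 h 7 of the 9 genes are red, at 24 h 5 are blue and 2 red, and at 72 h only Herpud1 (-0.66) and Sel1l (-0.36) are called.

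The turn between 8 and 24 h was tested as the change of the MMS effect. Changes to or from 8 h compare arrays with macrophage markers against arrays with far less of them. The part of this difference in the changes was not tested. From 1 to 8 h the effect rose for 7 genes, from 0.50 for Edem1 to 2.12 for Dnajb9, and fell for 0 (0 also at an unadjusted p under 0.05), against 21.3% and 20.0% of all genes. From 8 to 24 h it fell for 8 genes and rose for Derl2 alone, against 22.2% lower and 23.3% higher of all genes. Herpud1 had the largest turn (-2.93 ± 0.15 SE, adjusted p = 2.2e-15). Sel1l (-1.65), Dnajb9 (-1.48), Syvn1 (-1.48) and Xbp1 (-1.38) came next, each with an adjusted p of at most 1.9e-06. Derl1 (-0.94), Edem1 (-0.56) and Derl3 (-0.41, adjusted p = 0.043) turned less. The smallest values were the least stable. Derl3 lost its call without any 1 of 7 arrays (control 8 h replicates 2 and 4, MMS 8 h replicate 1, control 24 h replicates 3 and 4, MMS 24 h replicates 1 and 2), with values of -0.24 to -0.41. The Derl3 call was also lost with no filter, array weights, only the groups compared or without the 6 arrays with intestinal transcripts. There limma gave adjusted p-values of 0.052 to 0.10. Derl2 (0.20 ± 0.07 SE, adjusted p = 0.025) lost it without control 8 h replicate 4 (0.17) or control 24 h replicate 1 (0.17), and with arrays centred on their median its change was 0.08 (adjusted p = 0.44).

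From 24 to 72 h the effect rose for 3 genes and fell for 2, against 12.4% and 16.5% of all genes. It rose for Xbp1 (1.16), Herpud1 (0.90) and Syvn1 (0.62), all of which had been lower at 24 h, and fell for Dnajb9 (-0.73), which had still been higher. Each of these had an adjusted p of at most 0.00029. Derl2 fell as well (-0.21 ± 0.08 SE, adjusted p = 0.040), but lost its call without any 1 of 9 arrays of these groups, with values of -0.17 to -0.22 (control 24 h replicates 1 and 3, MMS 24 h replicates 1, 2 and 4, control 72 h replicates 2 and 3, MMS 72 h replicates 1 and 3). With arrays centred on their median it was -0.10 (adjusted p = 0.45). Without MMS 24 h replicate 3 Derl1 was called higher too (0.43, adjusted p = 0.039).

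Control cells changed over time without MMS, and mostly at 8 h. From 0 to 8 h Syvn1 (0.44 ± 0.08 SE, adjusted p = 5.2e-05), Derl2 (0.37 ± 0.05 SE, adjusted p = 4.1e-07) and Derl3 (0.34 ± 0.12 SE, adjusted p = 0.012) rose, and Herpud1 (-0.81 ± 0.11 SE, adjusted p = 2.2e-07) and Edem1 (-0.18 ± 0.07 SE, adjusted p = 0.043) fell. These counts of 3 and 2 stand against 35.8% of all genes higher and 23.6% lower, so the shares are near those of all genes. Markers of other cells moved in the same comparison. All 15 macrophage markers tested were higher, as were 4 of the 6 skeletal muscle markers tested (Acta1, Des, Chrna1 and Mylpf) with 0 lower (0 also at an unadjusted p under 0.05 by limma), and of the 14 fibroblast markers 7 were higher and 5 lower. Of the 10 skeletal muscle markers listed, Myod1, Myog, Tnnt3 and Myh3 were below the limit on low values in all groups and were not tested. Acta1, skeletal muscle actin, had group means of 10.33 at 0 h and 12.92 at 8 h, and Col1a1, the main fibroblast collagen, of 13.89 and 11.14. The part of these markers in the control changes was not tested. Derl3 lost its call without control 0 h replicate 3 or control 8 h replicate 1 (0.27 each). Edem1 lost it without replicates 1 or 3 of either group (-0.13 to -0.16) and with the average of its probe sets (-0.03), which also ended the Syvn1 call (0.16). Dnajb9 (0.12) gained one without control 0 h replicate 3 (0.18, adjusted p = 0.017). The 8 h arrays, which carry macrophage markers, also split the probe sets of Sel1l. The probe set used for Sel1l differed by -0.19 (adjusted p = 0.062) between control cells at 8 and 0 h, while the other 4 differed by -0.33, -1.10, -2.17 and -2.63. The mean of all 5 differed by -1.28. At 24 h, 72 h and 1 h the same 5 probe sets stayed within -0.07 to 0.60 of control cells at 0 h.

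At the other times fewer of the genes moved in control cells. At 1 h Derl1 alone was higher (0.37 ± 0.12 SE, adjusted p = 0.041) and 0 were lower (1 at an unadjusted p under 0.05), against 7.22% and 4.38% of all genes. Derl1 lost this call without replicate 1, 2 or 4 of control at 0 h or replicate 2, 3 or 4 of control at 1 h (0.32 to 0.39), and without control 0 h replicate 4 Derl2 was called in its place (0.17). At 24 h 0 were called in either direction by limma (0 higher and 2 lower at an unadjusted p under 0.05), against 9.12% and 2.06% of all genes. At 72 h Sel1l (0.51 ± 0.09 SE, adjusted p = 1.8e-05), Derl1 (0.41 ± 0.12 SE, adjusted p = 0.0077) and Dnajb9 (0.35 ± 0.06 SE, adjusted p = 6.4e-05) were higher and 0 were lower (1 at an unadjusted p under 0.05), against 21.8% and 16.3%. Without control 72 h replicate 1 the Derl1 call was lost (0.30, adjusted p = 0.056), and without control 0 h replicate 3 Syvn1 was called lower (-0.23, adjusted p = 0.043).

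Most probe sets of a gene gave the same direction of the MMS effect. At 8 h all probe sets of Xbp1, Herpud1, Sel1l, Syvn1, Derl1 and Edem1 were above 0, and at 24 h all those of Xbp1, Herpud1, Sel1l, Syvn1 and Derl1 were below 0. The probe sets disagreed in sign for Derl2 at both times and for Edem1 at 24 h. Sizes varied more than signs, as for Xbp1 at 24 h, where 1 of the 4 probe sets differed by -0.52 with overlapping arrays and the other 3 by -1.09 to -1.22.

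**Figure D3:**
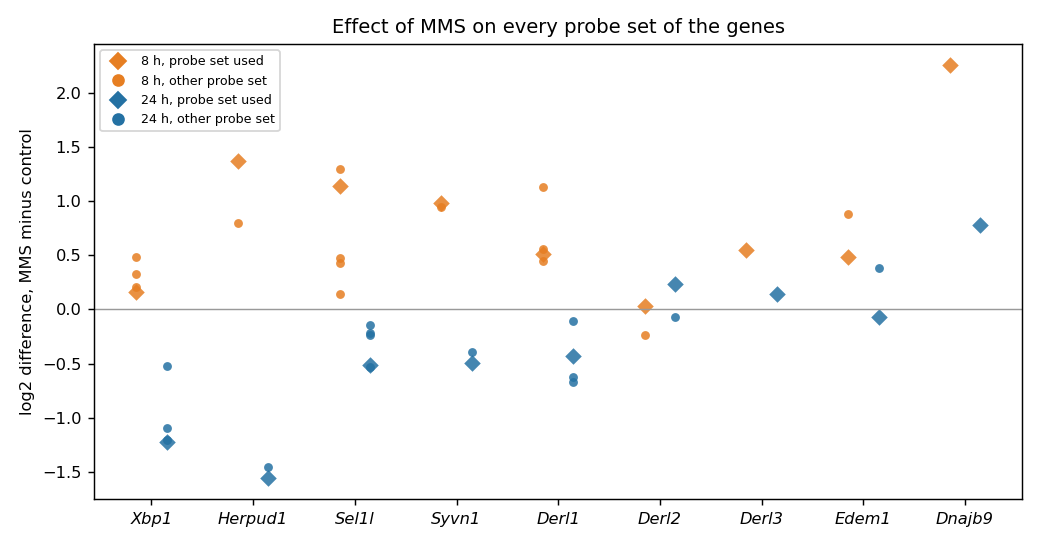
Log2 difference of MMS-treated minus control cells (y axis) on each of the 23 probe sets of the 9 genes (x axis) at 8 h (orange) and 24 h (blue); diamonds are the probe sets with the highest mean, used for each gene, and circles are the others. Orange symbols lie above 0 for every gene apart from 1 probe set of Derl2 (-0.24), and blue symbols lie below 0 for Xbp1, Herpud1, Sel1l, Syvn1 and Derl1.

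Across the 9 group means, pairs of these genes had very unequal likeness. Pearson's r ran from 0.90 for Syvn1 with Derl3 and for Derl3 with Dnajb9 to -0.40 for Xbp1 with Derl2. Xbp1 went with Herpud1 (r = 0.87) and Derl1 (0.75), and not with Dnajb9 (-0.06). These values describe 9 points that share arrays and normalization. Within groups, over the 35 arrays, r was 0.06 for Syvn1 with Derl3, -0.47 for Derl3 with Dnajb9 and 0.84 for Xbp1 with Herpud1. The last value rests on arrays with intestinal transcripts, as it was 0.39 without MMS 24 h replicate 3 and 0.08 without all 6 such arrays. Among 6134 other genes whose group means spanned at least 1 log2 unit, the 5 most like Xbp1 were Slc2a10 (r = 0.97), Dach2 (0.96), Aldh18a1 (0.95), Snhg18 (0.95) and Serp1 (0.95). The 5 most like Dnajb9 were Eaf2 (0.99), Frg2f1 (0.99), Aar2 (0.99), Zfp954 (0.98) and Flywch1 (0.98). Group means of Xbp1 were 11.27 to 11.61 apart from MMS at 24 h (10.05), and Dnajb9 stood far above its other groups in MMS at 8 h. Likeness to either gene thus rests largely on that group.

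For the gene lists that follow, the shares of all genes called after MMS are those given above, for 8 h 28.7% higher and 25.0% lower, and for 24 h 25.0% and 19.4%. Among 29 other ERAD components tested, 17 (58.6%) were called higher at 8 h and 6 (20.7%) lower, with a median of 0.26. Herpud2, a relative of Herpud1, was 1.84-fold higher (adjusted p = 4.4e-10), Ube2g2, a ubiquitin-conjugating enzyme of ERAD, 1.82-fold (adjusted p = 3.6e-13) and Man1b1, a mannosidase that trims glycans of misfolded proteins, 1.81-fold (adjusted p = 1.4e-05). Svip, an inhibitor of ERAD that binds VCP, had a log2 difference of -0.80 (adjusted p = 0.00028). Averaging the probe sets of each gene gave 13 higher and 9 lower for 8 h, and a median of 0.06. At 24 h 7 (24.1%) were higher and 6 (20.7%) lower, near the shares of all genes, with a median of -0.04. Ube2g2 (-0.64) and Selenos (-0.47), a derlin partner, fell, and Ufd1 (0.63), a VCP adaptor, and Edem2 (0.52), a relative of Edem1, rose. With arrays centred on their median the 24 h counts were 5 higher and 10 lower.

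Most ER chaperones and foldases were higher at 8 h. Of the 21 genes tested limma called 17 (81.0%) higher and 0 lower (0 also at an unadjusted p under 0.05), with a median of 0.57. Creld2 (3.15-fold), Sdf2l1 (2.88-fold), Ero1b (2.69-fold) and Hyou1 (2.30-fold) had the largest rises, each with an adjusted p of at most 1.4e-08. Creld2 and Sdf2l1 are ER lumen proteins of the UPR, Ero1b is an oxidase that drives disulfide formation and Hyou1 is a chaperone of the Hsp70 family. At 24 h 6 (28.6%) were higher and 9 (42.9%) lower, with a median of -0.14. Fkbp2 (-0.85), Ero1a (-0.65) and Hspa5 (-0.58), the gene of BiP, fell, while Ero1b was still higher (0.65). With arrays centred on their median, 3 were higher and 10 lower at 24 h.

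Genes of ER translocation and early secretion were mostly lower at 24 h. At 8 h 13 of the 29 tested (44.8%) were called higher and 2 (6.90%) lower, with a median of 0.16. At 24 h 4 (13.8%) were called higher and 18 (62.1%) lower, with a median of -0.33. Sec23b (0.75), a subunit of the COPII coat, Surf4 (0.71), a cargo receptor, and Srp68 (0.71) and Srprb (0.59), of the signal recognition particle and its receptor, rose at 8 h. Sec61b (-0.90), of the translocation channel, Kdelr3 (-0.87), a receptor that returns ER proteins, Serp1 (-0.79), which stabilizes membrane proteins at the channel, and Sec24d (-0.78), of the COPII coat, fell at 24 h. Serp1 was also among the 5 genes most like Xbp1.

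The ER stress sensors and transcription factors were mostly lower at 24 h. At 8 h 5 of the 13 tested (38.5%) were called higher and 3 (23.1%) lower, near the shares of all genes, with a median of 0.05 beside 0.06 over all genes. Ppp1r15a (GADD34), which restores translation, was 4.14-fold higher and Ddit3 (CHOP) 3.73-fold, while Nfe2l1 rose by 0.41 and Mbtps1, the protease that cuts ATF6, had a log2 difference of -0.41. Ern1, the gene of IRE1, was 0.37 higher and passed the test. At 24 h 1 (7.69%) was higher and 9 (69.2%) lower, with a median of -0.38, and Atf4 (-1.10), Ddit3 (-1.08), Creb3l2 (-0.82) and Atf6 (-0.67) fell. Ern1 was named for its link to Xbp1, after its values were seen.

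Targets of ATF4 and CHOP had the lowest median of the lists at 24 h. At 8 h 10 of the 16 tested (62.5%) were called higher and 1 (6.25%) lower, with a median of 0.52. At 24 h 2 (12.5%) were called higher and 10 (62.5%) lower, with a median of -0.77. At 8 h Slc7a11, the cystine transporter, was 13.0-fold higher, Atf3, a stress transcription factor, 7.59-fold and Trib3, a pseudokinase induced by CHOP, 2.59-fold. At 24 h Chac1 (-2.74), which degrades glutathione, Nupr1 (-2.29), a stress-induced nuclear protein, and Trib3 (-1.88) fell, and Slc7a11 was still 7.81-fold higher. With arrays centred on their median, 1 was higher and 10 lower at 24 h.

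Of 7 mRNAs known to be cut by IRE1 in mouse cells, 2 (28.6%) were higher and 5 (71.4%) lower at 8 h (median -0.62), and 1 (14.3%) higher and 6 (85.7%) lower at 24 h (median -0.67). The list held 8 genes, and Bloc1s1 had no probe set that could be used. In control cells from 0 to 8 h, without MMS, the same list also had 2 higher and 5 lower (median -0.54). Pdgfrb (-1.85), Pmp22 (-1.27) and Scara3 (-1.12) fell at 8 h and Col6a1 (-1.72), Pdgfrb (-1.02) and Galnt10 (-0.70) at 24 h, while Hgsnat rose at both (1.17 and 1.27). Pdgfrb, a growth factor receptor, and Col6a1, a collagen, are also products of fibroblasts. Among the 14 fibroblast markers, which include Pdgfrb, 12 were lower at 8 h and 13 at 24 h. The mean of these markers was 11.12 to 11.17 in control and 10.22 to 10.32 in MMS-treated arrays at 8 h, and 11.02 to 11.11 against 10.03 to 10.40 at 24 h. At 8 h 1 of the 15 macrophage markers tested was called higher and 8 were called lower. At 24 h Cd68, Cd14 and Csf1r were called higher and 0 lower by limma (1 at an unadjusted p under 0.05). Their group means in control and MMS-treated cells at 24 h were 4.95 and 8.40 for Cd68, 5.54 and 8.28 for Cd14 and 5.85 and 7.77 for Csf1r. Over all 15 macrophage markers tested the median log2 difference at 24 h was -0.07. The part of these markers in the results above was not tested.

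**Figure D4:**
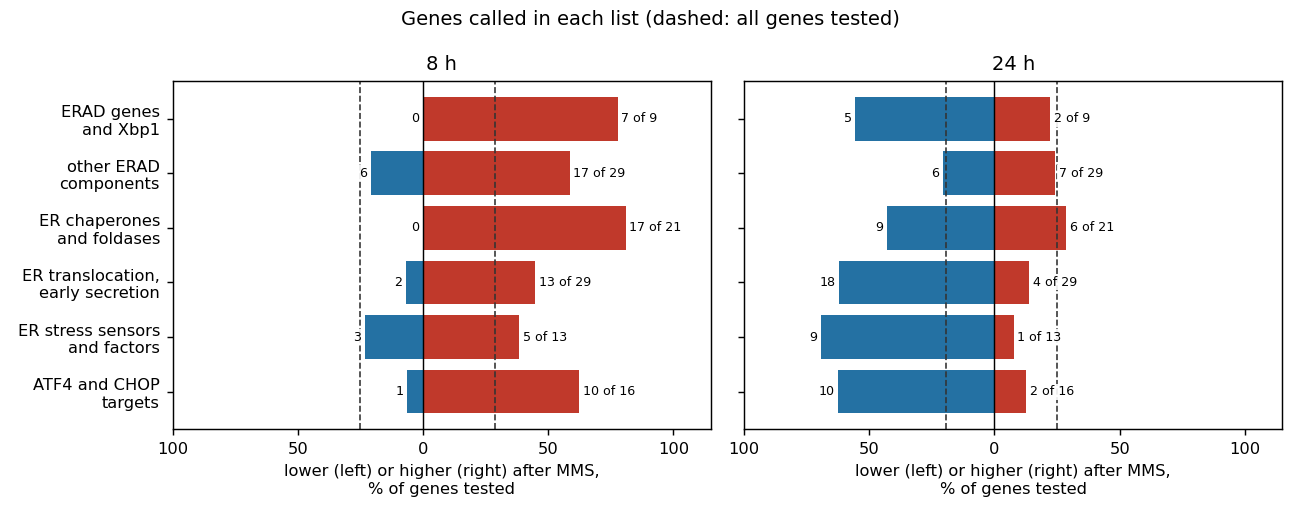
Share of the genes tested in each list (x axis, in %) that were called lower (blue, left) or higher (red, right) after MMS at 8 and 24 h (limma, adjusted p under 0.05), with the counts beside the bars; dashed lines are the shares of all 14135 genes. At 8 h the 9 ERAD genes (7 of 9) and the chaperones (17 of 21) have the largest shares called higher, and at 24 h the bars to the left are longer than those to the right for all lists shown other than the other ERAD components.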

How the data were processed

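RNA of MEFs was hybridised to Affymetrix mouse arrays. The deposited table holds log2 signals of 45101 probe sets on 35 arrays. RMA normalization is credited to the authors, with no version given. The methods name an array of the same family with fewer probe sets than the table holds. Values ranged from 2.44 to 14.62 with array medians of 4.98 to 5.09. No scan date or other batch was known. The 34958 probe sets with 1 gene symbol were used, 34754 of them with a gene ID in the reference, and for each gene the brightest on average. Genes with no group mean at or above log2 4.40, percentile 40 of the table, were left out. limma 3.58.1 (R 4.3.3) fitted all 35 arrays together, leaving 26 residual degrees of freedom, with empirical Bayes moderation and two-sided p-values adjusted by Benjamini-Hochberg within each comparison. The fit was tested on simulated data. The study's own permutation analysis was not described closely enough to be rerun. The most similar arrays had a correlation of 0.997 and differed by 0.13 log2 units on average, so none was a copy of another.

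The 9 genes and the lists were chosen with earlier results of these data known. All 9 are described, and from each list up to 4 genes with the largest called difference at 8 h and up to 4 at 24 h. Likeness was ranked by Pearson's r over the 9 group means. Alternatives changed the normalization, filter, probe set, samples, weights, moderation, reference and pairing, and left out arrays. The alternative without 6 arrays was added after the values were seen. Precision is limited by the number of arrays.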

Additional observations from a re-analysis of the deposited data

Results flagged for a closer look

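Each of the 9 genes was examined in the 8 groups of 4 arrays, 72 sets in all, and 4 sets had 1 array farther from the rest than Dixon's 95% limit allows. Chance alone gives about 1 in 20 such sets. They are Xbp1 on control 0 h replicate 3 (11.63, others 11.38 to 11.42), Xbp1 on MMS 24 h replicate 3 (10.90, others 9.72 to 9.79), Derl1 on MMS 1 h replicate 3 (10.96, others 11.15) and Derl3 on control 1 h replicate 4 (5.10, others 5.42 to 5.46). The first 3 are arrays with intestinal transcripts. The fourth is not counted among them, though its mean of the 26 intestinal markers (5.24) was the highest of the remaining arrays.

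The MMS effect differed between time points by a test of the difference itself (limma, adjusted p under 0.05) in 21 cases. From 1 to 8 h it rose for Herpud1 (1.20), Sel1l (1.31), Syvn1 (0.83), Derl1 (0.75), Derl3 (0.53), Edem1 (0.50) and Dnajb9 (2.12). From 8 to 24 h it was lower for Xbp1 (-1.38), Herpud1 (-2.93), Sel1l (-1.65), Syvn1 (-1.48), Derl1 (-0.94), Derl3 (-0.41), Edem1 (-0.56) and Dnajb9 (-1.48), and higher for Derl2 (0.20). From 24 to 72 h it was higher for Xbp1 (1.16), Herpud1 (0.90) and Syvn1 (0.62), and lower for Derl2 (-0.21) and Dnajb9 (-0.73). The 8 h arrays differ from the rest in macrophage markers, and the part of this in changes to or from 8 h was not tested.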

How the results depend on the processing

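Of 387 values of the 9 genes after MMS under other settings (the 0 h reference and leaving out arrays apart), 377 kept their side of the threshold, 5 lost a call, 4 gained one and 1 reversed: Edem1 at 24 h with the mean of all probe sets (0.16, against -0.07). A change of sign was counted as reversed only if the value was called under either setting, so values never called may have changed sign. Against control at 0 h Sel1l at 72 h also reversed (0.14). The counts at 1, 8 and 24 h after MMS stayed within 1.5 times of those reported under every alternative run. At 72 h 1 gene was higher with array weights, against 0 h or without the 4 arrays with intestinal transcripts, and 1 lower with only the groups compared, against 0 h or without the 4 or 6 such arrays. In control cells at 1 h the higher count was 2 with centring, 3 with weights and 0 after quantile normalization, with no filter or without the 8 h arrays, and the lower count was 1 with weights or without the 4 arrays. At 8 h the lower count was 1 with centring, with no filter or without the 4 or 6 arrays. At 24 h it was 2 with weights and 1 after quantile normalization, with the mean of probe sets or without the 4 arrays. At 72 h it was 1 with the mean of probe sets, weights or without the 4 or 6 arrays. For the MMS effect from 8 to 24 h the higher count was 0 with centring or only the groups compared. For that from 24 to 72 h the lower count was 1 with centring, no filter, the mean of probe sets, the replicate block, only the groups compared or without the 4 or 6 arrays. Leaving out 1 array gave 1 to 2 lower after MMS at 72 h, 0 to 1 higher in control cells at 1 h, 1 to 2 lower at 8 h and 0 to 1 lower at 72 h, 0 to 1 higher from 8 to 24 h and 1 to 2 lower from 24 to 72 h. The causes were not tested. Deviations of same-numbered control and MMS arrays correlated with r of -0.26 to 0.31, above 0.1 in 8 of 15 pairs, and 8 of 15 MMS arrays correlated best with their own number, a hint from the data of something shared. As not every pair was above 0.1, the numbers were not used as pairs. A replicate block left 7611 genes called at 8 h (7588 without it) and changed no other call of the 9 genes after MMS. Centring moved the median of all genes from -0.03 to -0.15 for the effect from 8 to 24 h and from -0.04 to 0.07 for that from 24 to 72 h. Low signals, as of Derl3, are compressed toward background.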
